A study of Mus musculus with 10 samples.

Results

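T and B lymphocyte markers were examined in cardiomyocyte RNA from infarcted mouse hearts with and without transgenic overexpression of the kinase GRK5. The set held 9 genes, 6 of T cells (Cd3d, Cd3e, Cd3g, Cd4, Cd8a and Trbc2) and 3 of B cells (Cd79a, Cd79b and Ms4a1). They were chosen by symbol, and all 9 were found among the 51789 genes of the count table. The 5 TgGRK5-MI libraries came from mice whose GRK5 transgene is restricted to cardiomyocytes, and the 5 NLC-MI libraries came from non-transgenic littermate controls (NLC). All 10 mice had undergone myocardial infarction (MI), and their cardiomyocytes were collected on day 4, with 1 library per mouse. No sham-operated group was analysed here, so every comparison is between infarcted hearts. The age and sex of each mouse are not in the labels. Grk5 itself ran from 46.5 to 73.1 CPM in NLC-MI and from 552 to 1700 CPM in TgGRK5-MI, so the groups did not overlap.

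Lymphocytes enter the heart after infarction as a minority of the recruited leukocytes, alongside far larger numbers of neutrophils, monocytes and macrophages. T cells recognise antigen with a receptor whose variable chains are held at the surface by the CD3 chains, and CD4 or CD8 acts as its coreceptor. B cells carry surface immunoglobulin, which signals through CD79A and CD79B, and those that mature to plasma cells secrete immunoglobulin. The 9 genes are used as markers of lymphocytes and are not markers of cardiomyocytes.

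Transcripts of all 9 markers were detected, all at low levels, and none of them differed between TgGRK5-MI and NLC-MI beyond the spread between mice. The CD3 chains, which define T cells, were at the limit of the depth, with 61 counts in all 10 libraries together. The B cell receptor chains Cd79a and Cd79b had higher mean levels in TgGRK5-MI (0.724 against 0.443 CPM and 1.22 against 0.729 CPM), whereas the mean of the third B cell marker, Ms4a1, was 0.442 CPM in TgGRK5-MI and 0.457 CPM in NLC-MI. CPM are counts scaled to library size with edgeR's TMM factors. The libraries held 7968779 to 23381527 counts, at which 3 counts, taken as the floor of detection, correspond to 0.121 to 0.393 CPM.

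The 3 genes of the CD3 complex lie side by side on chromosome 9 (GRCm38). Cd3g (ENSMUSG00000002033, 44969572 to 44980431, minus strand) is followed after 1354 bases by Cd3d (ENSMUSG00000032094, 44981786 to 44987339, plus strand) and after a further 11400 bases by Cd3e (ENSMUSG00000032093, 44998740 to 45009627, minus strand). Their products pair as epsilon with delta and epsilon with gamma, and carry the signal of the T cell receptor into the cell.

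Cd3d had 7, 2, 0, 0 and 0 counts in NLC-MI replicates 1 to 5 and 1, 2, 0, 1 and 1 counts in TgGRK5-MI replicates 1 to 5. Only NLC-MI replicate 1 lay above the floor. Cd3e had 4, 4, 1, 3 and 0 counts in NLC-MI and 4, 1, 4, 0 and 0 counts in TgGRK5-MI, and 3 NLC-MI and 2 TgGRK5-MI libraries reached 3 counts. Cd3g had 5, 7, 1, 0 and 0 counts in NLC-MI and 2, 4, 2, 0 and 5 counts in TgGRK5-MI. Summed over the 3 chains, the counts were 16, 13, 2, 3 and 0 in NLC-MI and 7, 7, 6, 1 and 6 in TgGRK5-MI. NLC-MI replicates 1 and 2 were thus the highest libraries of the sum and NLC-MI replicate 5 had no CD3 count at all, which at its depth allows up to 0.196 CPM. The summed CD3 level averaged 0.327 ± 0.286 CPM in NLC-MI against 0.314 ± 0.146 CPM in TgGRK5-MI (SD over n = 5 libraries each). Cd3e shares 135 exon bases with the antisense gene Gm48719, which had 0 counts. None of the 3 genes passed the filter on low counts, and the log2 fold changes of TgGRK5-MI over NLC-MI, taken from the edgeR fit without the filter, had wide intervals. They were -0.64 for Cd3d (95% interval -2.55 to 1.26), -0.25 for Cd3e (-1.98 to 1.48) and 0.13 for Cd3g (-1.49 to 1.75). For Cd3d, the difference of mean log2 CPM was 0.03 and had the opposite sign to the fitted value. Whether the CD3 chains differed between the groups by less than these intervals was not detectable at this depth.

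The constant region of the T cell receptor beta chain is encoded by Trbc1 and Trbc2, either of which a T cell may use. Trbc2 (ENSMUSG00000076498, chromosome 6 from 41546730 to 41548352, plus strand) lies 6848 bases from Trbc1 (41538218 to 41539881) and is annotated as a T cell receptor constant gene. The coding sequences in GENCODE M21 are 518 bases long in both genes and differ at 23 bases (95.6% identity). The first 259 bases are identical, so reads that lie wholly within them cannot be assigned to either gene. The last 120 coding bases, from base 399 to base 518, are shown because they hold 19 of the 23 differences. They are written 5′ to 3′ with the differing bases in capitals.

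Trbc1: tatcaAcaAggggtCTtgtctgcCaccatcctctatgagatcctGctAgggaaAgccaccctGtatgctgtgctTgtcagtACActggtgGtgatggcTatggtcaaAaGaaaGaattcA
Trbc2: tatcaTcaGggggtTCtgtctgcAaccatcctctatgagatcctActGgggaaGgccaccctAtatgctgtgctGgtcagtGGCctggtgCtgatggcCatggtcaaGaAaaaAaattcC

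Trbc2 had 19, 17, 1, 4 and 1 counts in NLC-MI and 7, 21, 1, 1 and 2 counts in TgGRK5-MI. NLC-MI replicates 1 and 2 and TgGRK5-MI replicate 2 stood above the other 7 libraries, and the groups overlapped. Trbc2 averaged 0.382 ± 0.354 CPM in NLC-MI against 0.306 ± 0.353 CPM in TgGRK5-MI (SD over n = 5 libraries each), a log2 fold change of -0.28 (95% interval -1.76 to 1.21). Because the split of reads between the paralogs is uncertain, the sum of Trbc1 and Trbc2 was also taken. It came to 31, 30, 1, 6 and 3 counts in NLC-MI and 8, 29, 3, 2 and 2 counts in TgGRK5-MI, and the same 3 libraries were highest. For the alpha chain, the constant gene Trac had 42, 36, 10, 16 and 8 counts in NLC-MI and 33, 50, 9, 23 and 16 counts in TgGRK5-MI. Trac passed the filter on low counts, and edgeR gave it a log2 fold change of 0.38, with a standard error of 0.42 and an unadjusted p of 0.381.

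Cd4 (ENSMUSG00000023274, chromosome 6 from 124864692 to 124888221, minus strand) encodes the coreceptor of helper and regulatory T cells. In mice, some dendritic cells also make CD4. It had the most counts of the 9 markers, with 68, 87, 14, 24 and 19 counts in NLC-MI and 28, 59, 23, 19 and 28 counts in TgGRK5-MI. Cd4 averaged 2.14 ± 1.07 CPM in NLC-MI against 1.88 ± 0.515 CPM in TgGRK5-MI (SD over n = 5 libraries each). NLC-MI replicates 1 and 2 were the highest libraries, and the remaining NLC-MI libraries lay within or below the range of TgGRK5-MI. The log2 fold change was -0.22 (standard error 0.36, 95% interval -1.0 to 0.56) with an edgeR adjusted p of 1.00. Cd8a (ENSMUSG00000053977, chromosome 6 from 71373427 to 71379173, plus strand) encodes a chain of the coreceptor of cytotoxic T cells and is also found on a class of dendritic cells. It had 15, 4, 1, 9 and 3 counts in NLC-MI and 10, 12, 4, 2 and 2 counts in TgGRK5-MI. Its levels of 0.314 ± 0.225 and 0.328 ± 0.169 CPM (SD, n = 5 each) gave a log2 fold change of 0.02 (95% interval -1.14 to 1.18).

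**Figure D1:**
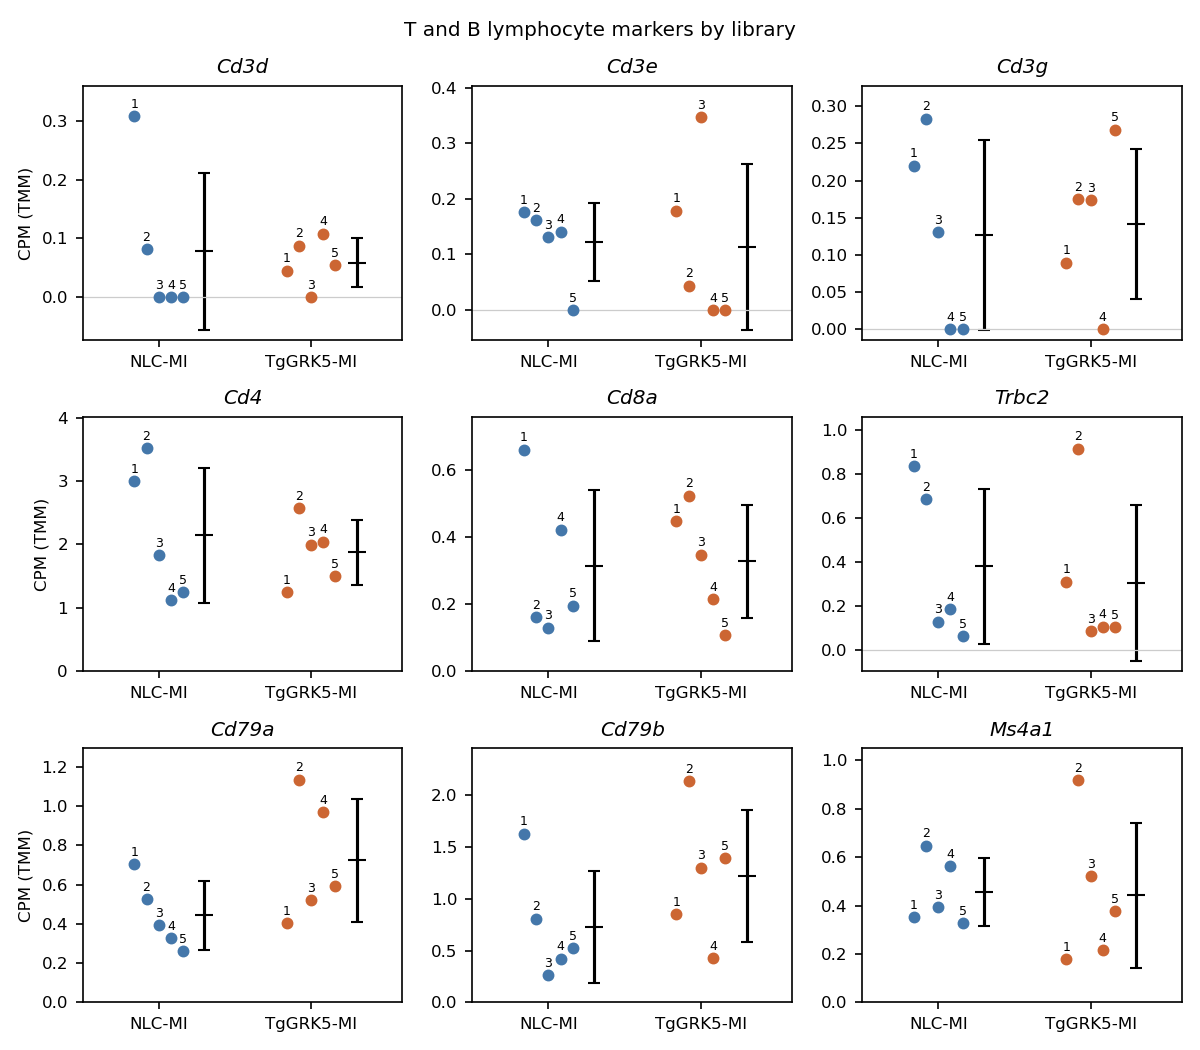
Each panel shows the CPM (counts scaled to library size with TMM, linear axis) of a marker in the 5 NLC-MI (blue) and 5 TgGRK5-MI (orange) libraries, with the replicate number at each point and the mean and SD of each group in black. NLC-MI replicates 1 and 2 and TgGRK5-MI replicate 2 are the highest 3 libraries for Cd4 and Trbc2, and the groups overlap for all 9 markers.

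CD79A and CD79B form the signalling pair of surface immunoglobulin and are present from early B cell stages onward. Cd79a (ENSMUSG00000003379, chromosome 7 from 24897381 to 24902197, plus strand) had 16, 13, 3, 7 and 4 counts in NLC-MI and 9, 26, 6, 9 and 11 counts in TgGRK5-MI. Cd79a averaged 0.443 ± 0.176 CPM in NLC-MI against 0.724 ± 0.313 CPM in TgGRK5-MI (SD over n = 5 libraries each). The highest libraries were TgGRK5-MI replicates 2 and 4, but NLC-MI replicate 1 lay above the other 3 TgGRK5-MI libraries. The log2 fold change was 0.65 (standard error 0.40, 95% interval -0.23 to 1.52), with an edgeR unadjusted p of 0.132 and an adjusted p of 1.00. The two-sided exact permutation test gave p = 0.111, and the smallest p that 5 against 5 libraries allow is 0.00794. A processed pseudogene on chromosome 12, Gm32220, matches Cd79a at 98.7% over 298 bases, and it had 0 counts in every library.

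Cd79b (ENSMUSG00000040592, chromosome 11 from 106311341 to 106314762, minus strand) had 37, 20, 2, 9 and 8 counts in NLC-MI and 19, 49, 15, 4 and 26 counts in TgGRK5-MI. Cd79b averaged 0.729 ± 0.541 CPM in NLC-MI against 1.22 ± 0.640 CPM in TgGRK5-MI (SD over n = 5 libraries each), and the second highest library of all was NLC-MI replicate 1. The log2 fold change was 0.69 (standard error 0.48, 95% interval -0.36 to 1.75, edgeR unadjusted p = 0.176), and the exact two-sided permutation test gave p = 0.198. Without NLC-MI replicate 1 the log2 fold change of Cd79b was 1.203, with an edgeR unadjusted p of 0.0267 and an adjusted p of 0.881. Ms4a1 (ENSMUSG00000024673, chromosome 19 from 11249675 to 11266241, minus strand) encodes CD20, which is on mature B cells and is lost by plasma cells. It had 8, 16, 3, 12 and 5 counts in NLC-MI and 4, 21, 6, 2 and 7 counts in TgGRK5-MI. Its levels of 0.457 ± 0.141 and 0.442 ± 0.298 CPM (SD, n = 5 each) gave a log2 fold change of -0.03 (95% interval -1.05 to 0.99). The TgGRK5-MI libraries held both the highest and the lowest Ms4a1 level.

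Of the 9 markers, 3 passed the filter on low counts (Cd4, Cd79a and Cd79b), and none of these had an adjusted p under 0.10 in edgeR's quasi-likelihood test, where 0.0788% of the 15232 genes tested did. At an unadjusted p under 0.05 the number was also 0, against 3.85% of the genes tested. In the fit of all 28506 genes with a count, 0 of the 9 markers reached an adjusted p under 0.10, against 0.0631% of the genes, and 0 reached an unadjusted p under 0.05, against 4.08%. At an unadjusted p under 0.05 there were likewise 0 of 9 markers with DESeq2 and 0 of the 3 that limma-voom with sample quality weights tested. The groups overlapped for every marker, while 1.00% of the genes tested and 0.779% of the genes with a count had groups that did not overlap. The plot of fitted differences shows intervals that include 0 for all 9. In these bulk libraries fewer cells of a type and less RNA per cell cannot be told apart, so the levels do not give numbers of T or B cells.

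**Figure D2:**
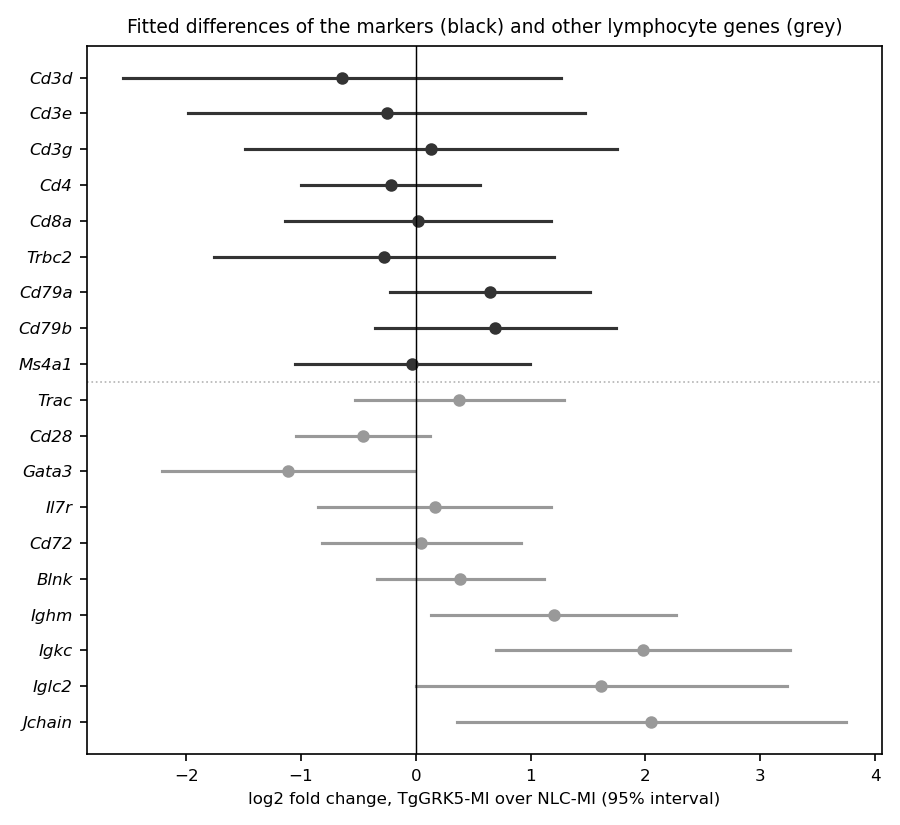
Log2 fold changes of TgGRK5-MI over NLC-MI with 95% intervals from edgeR, for the 9 markers (black) and for other lymphocyte genes (grey). The grey genes had more than 3 counts in each group, and the highest levels or an edgeR unadjusted p under 0.05. Iglc1 and Vpreb3 had too few counts in NLC-MI and are not shown. All 9 marker intervals cross 0, from the narrowest for Cd4 (-1.0 to 0.56) to the widest for Cd3d (-2.55 to 1.26), whereas those of Igkc, Ighm, Iglc2 and Jchain lie above 0 and that of Gata3 below it.

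To compare markers with each other, CPM were divided by the length of the merged exons. Over all 10 libraries the order was Cd79b (0.682 CPM per kb), Cd4 (0.498), Trbc2 (0.497), Cd79a (0.400), Cd8a (0.0884), Ms4a1 (0.0726), Cd3g (0.0410), Cd3d (0.0376) and Cd3e (0.0289). Only the step from Cd79a to Cd8a, with Cd79a higher in 10 of 10 libraries, exceeded the SD of the paired difference between neighbours. The other 7 steps did not, so the order of neighbours within the upper 4 and within the lower 5 genes is not resolved. Genes further apart in the order were not compared in this way. Cd4 stood 13.9 times above the mean of the 3 CD3 chains per length, and Cd79b 9.40 times above Ms4a1. These ratios depend on the merged exon lengths, which were 1431 bases for Cd79b and 6187 bases for Ms4a1. Before the division, Cd79b averaged 0.977 CPM and Ms4a1 0.449 CPM over all 10 libraries. Which annotated transcripts were expressed was not tested. Cd4 also supplied 65.2% of the 566 counts pooled over the T markers, from 53.8% to 82.6% in single libraries. The summed T level is therefore mainly a Cd4 level, and it is given below with and without that gene.

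**Figure D3:**
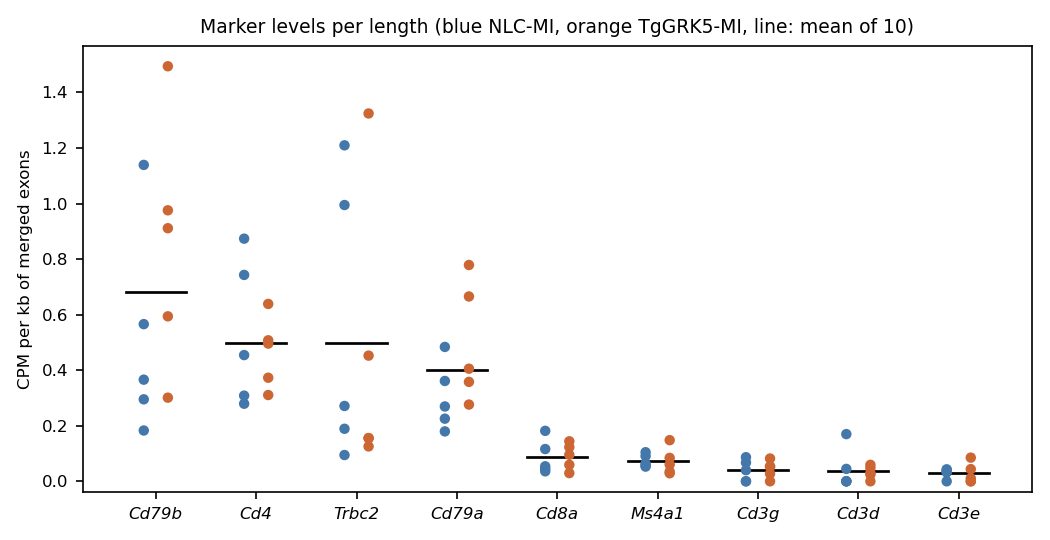
CPM per kb of merged exons (linear axis) of each marker in every library, NLC-MI in blue and TgGRK5-MI in orange, ordered by the mean of the 10 libraries (black line). Cd79b, Cd4, Trbc2 and Cd79a average 0.400 to 0.682 CPM per kb, and the other 5 markers average 0.0884 or less.

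Summed over the 6 T markers, the level was 5.20, 4.90, 2.36, 1.88 and 1.51 CPM in NLC-MI and 2.33, 4.32, 2.96, 2.48 and 2.04 CPM in TgGRK5-MI. NLC-MI replicates 1 and 2 and TgGRK5-MI replicate 2 were highest, and the other 7 libraries lay between 1.51 and 2.96 CPM. The means were 3.17 ± 1.75 and 2.82 ± 0.900 CPM (SD, n = 5 each). Without Cd4 they were 1.02 ± 0.778 and 0.949 ± 0.522 CPM, and the same 3 libraries led. Summed over the 3 B markers, the level was 2.69, 1.98, 1.05, 1.31 and 1.11 CPM in NLC-MI and 1.43, 4.19, 2.35, 1.62 and 2.36 CPM in TgGRK5-MI. TgGRK5-MI replicate 2 held the most B marker RNA, and 3 of the NLC-MI libraries lay below all of TgGRK5-MI. The means were 1.63 ± 0.698 and 2.39 ± 1.09 CPM (SD, n = 5 each), a difference of 0.760 CPM against a pooled SD of 0.916 CPM. Without Cd79b this difference was 0.266 CPM. The number of B marker counts per T marker count, with Cd4 included, was 0.561 ± 0.151 in NLC-MI and 0.838 ± 0.227 in TgGRK5-MI (SD, n = 5 each). Its values overlapped, from 0.405 to 0.739 in NLC-MI and from 0.615 to 1.16 in TgGRK5-MI.

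The 3 libraries with the highest summed T marker levels also had the highest fibroblast sums, and they were among the highest 4 for macrophage genes. The 6 fibroblast genes, among them the collagen genes Col1a1 and Col3a1, summed to 23400 and 23974 CPM in NLC-MI replicates 1 and 2 and to 24595 CPM in TgGRK5-MI replicate 2, against 3991 to 14043 CPM in the other 7 libraries. The 13 macrophage genes, led by Lyz2 and Ctss, ran from 912.2 to 3092 CPM, with TgGRK5-MI replicate 2 highest and NLC-MI replicate 1 second. The 3 libraries did not lead for every cell type. The endothelial genes, with Cdh5 and Pecam1 highest, were at 879 to 982 CPM in them and up to 1472 CPM in TgGRK5-MI replicate 4. The neutrophil genes were at 21.4 to 25.7 CPM in them and up to 39.1 CPM in the same TgGRK5-MI library. The erythroid genes were highest in NLC-MI replicate 3 (412 CPM, against 9.49 to 51.7 CPM elsewhere). The 8 cardiomyocyte genes, led by Myh6 and Actc1, were lowest in NLC-MI replicate 1 (50825 CPM) and TgGRK5-MI replicate 2 (52832 CPM). They were highest, at 130959 CPM, in NLC-MI replicate 5, the library without a CD3 count. Per length over all libraries, Myh6 stood at 3774 CPM per kb, Col1a1 at 540 and the macrophage gene Lyz2 at 525.8, against 1.75 for the leukocyte antigen gene Ptprc. The label of cardiomyocytes was thus met by abundant muscle transcripts, with RNA of other cell types present in every library. The part of these other cells in the marker levels was not tested.

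**Figure D4:**
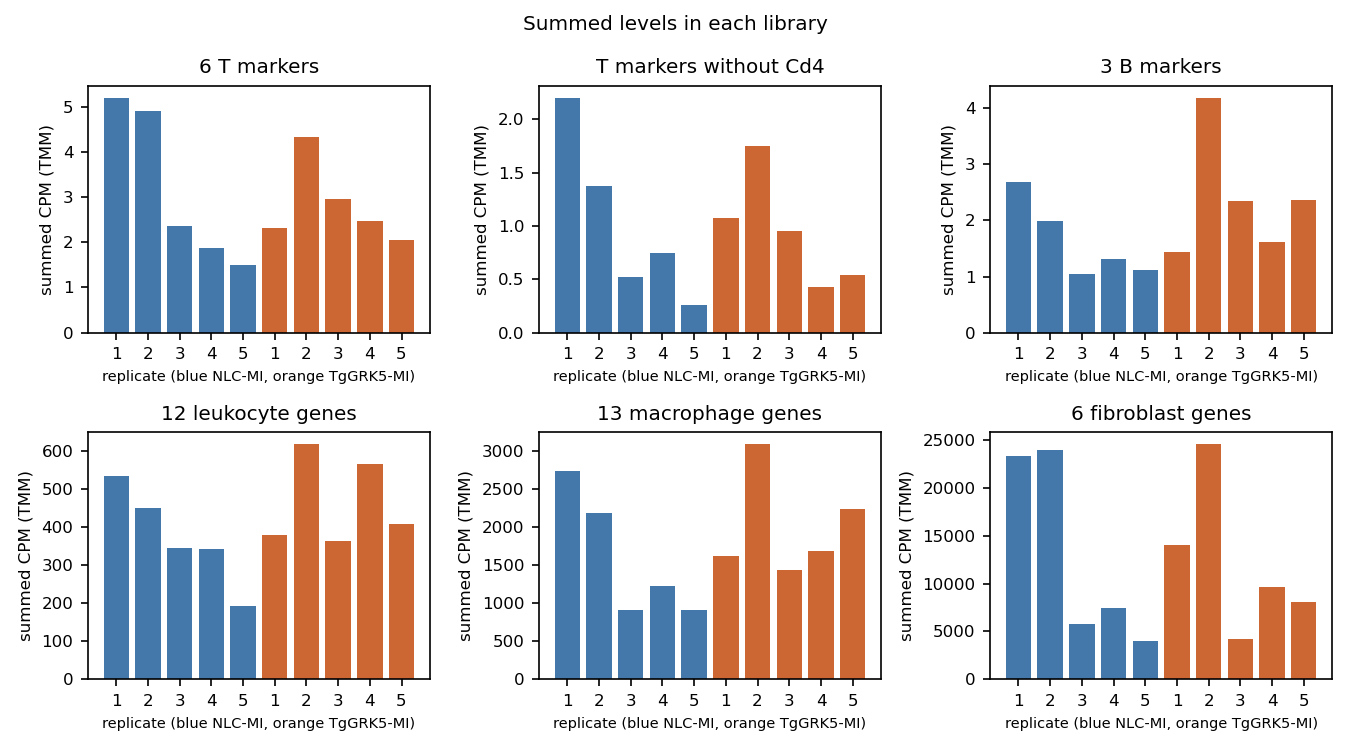
Summed CPM (linear axes starting at 0) of the T markers with and without Cd4, the B markers and the leukocyte, macrophage and fibroblast genes in each library, NLC-MI in blue and TgGRK5-MI in orange. NLC-MI replicates 1 and 2 and TgGRK5-MI replicate 2 lead the T marker and fibroblast sums, with fibroblast sums of 23400, 23974 and 24595 CPM.

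Relative to leukocyte RNA as a whole the markers also overlapped between the groups. All 12 genes of a list expressed across leukocytes (among them Laptm5 and Arhgdib) passed the filter, with a median log2 fold change of 0.36 and positive values for 11, where the median of all genes tested was 0.001. None of the 12 had an unadjusted p under 0.05 in this edgeR fit (the lowest was 0.0521, for Cd52), and only Cd52 did in the edgeR fit without the filter. All 13 macrophage genes had positive values (median 0.22), also without an unadjusted p under 0.05. Per 1000 counts of the leukocyte list there were 8.15 ± 2.16 T marker counts in NLC-MI and 6.13 ± 1.503 in TgGRK5-MI (SD, n = 5 each). Without Cd4 these T marker counts were 2.45 ± 1.15 in NLC-MI and 2.07 ± 0.967 in TgGRK5-MI. The corresponding B marker counts were 4.42 ± 1.07 and 5.13 ± 1.73.

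Of 28 further T cell genes, 7 passed the filter, and none of them had an unadjusted p under 0.05 in edgeR (median log2 fold change -0.40, with 2 positive). The highest were Il7r, the interleukin-7 receptor chain, at 3.57 ± 2.03 CPM in NLC-MI against 4.03 ± 1.95 CPM in TgGRK5-MI, and Cd28, the costimulatory receptor, at 3.95 ± 1.08 and 2.86 ± 0.876 CPM (SD, n = 5 each). Cd28 did not follow the CD3 chains. It had 83 counts in NLC-MI replicate 5, the library with 0 CD3 counts, and Ctla4, an inhibitory receptor named after its values were seen, had its highest value there with 50 counts. In the fit without the filter, Gata3, a transcription factor of T helper cells, had 6 to 10 counts in NLC-MI and 1 to 5 counts in TgGRK5-MI, a log2 fold change of -1.11 (edgeR adjusted p = 0.869). Its unadjusted p of 0.0466 in edgeR rose above 0.05 without any of 7 single libraries.

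Among 25 further genes of the B lineage, the immunoglobulin genes Igkc and Ighm had higher mean levels in TgGRK5-MI, but did not reach an adjusted p under 0.10. In edgeR, 2 of the 8 genes that passed the filter were higher at an unadjusted p under 0.05 and none was lower, against 1.77% and 2.08% of the genes tested, and the median log2 fold change of the 8 was 0.12. Igkc, the constant region of the kappa light chain, had 65, 68, 18, 33 and 6 counts in NLC-MI and 222, 349, 27, 87 and 44 counts in TgGRK5-MI. Igkc averaged 1.98 ± 1.03 CPM in NLC-MI against 7.85 ± 5.51 CPM in TgGRK5-MI (SD over n = 5 libraries each). TgGRK5-MI replicates 1, 2 and 4 lay above every NLC-MI library, at 9.93, 15.2 and 9.37 CPM, while replicates 3 and 5 lay within the NLC-MI range. The log2 fold change was 1.98 (standard error 0.59), with an edgeR unadjusted p of 0.00560, an adjusted p of 0.858 and an exact permutation p of 0.0714. With each library left out in turn it stayed between 1.59 and 2.22, each time with an edgeR unadjusted p under 0.05.

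Ighm, the constant region of the mu heavy chain, had 289, 360, 51, 75 and 98 counts in NLC-MI and 575, 902, 114, 181 and 126 counts in TgGRK5-MI. Ighm averaged 8.78 ± 4.66 CPM in NLC-MI against 20.2 ± 13.1 CPM in TgGRK5-MI (SD over n = 5 libraries each). In edgeR this was 1.2 ± 0.49 on the log2 scale (fold change with its standard error), with an unadjusted p of 0.0303 and an adjusted p of 1.00. The unadjusted p rose above 0.05 without NLC-MI replicate 3, 4 or 5 or TgGRK5-MI replicate 1 or 2, and without TgGRK5-MI replicate 2 the log2 fold change was 0.81. The other leading genes of the list, Cd72 and Blnk, had log2 fold changes of 0.05 and 0.39 with edgeR unadjusted p of 0.907 and 0.268. Fitted without the filter, 6 of the 25 genes were higher at an unadjusted p under 0.05 (Igkc, Ighm, Iglc1, Iglc2, Jchain and Vpreb3) and 0 were lower, against 1.81% and 2.27% of the genes with a count. Jchain, which joins secreted immunoglobulin into polymers, had 12, 14, 1, 2 and 4 counts in NLC-MI and 44, 89, 0, 4 and 7 counts in TgGRK5-MI. TgGRK5-MI replicates 1 and 2 supplied most of its counts, and the log2 fold change of 2.05 (edgeR adjusted p = 0.869) was 1.13 without TgGRK5-MI replicate 2. The unadjusted p of Jchain rose above 0.05 without that library or NLC-MI replicate 4, and that of Iglc2 without any of 6 single libraries. The lambda constant gene Iglc1 had 1 count in NLC-MI replicate 1 and 7, 16 and 2 counts in TgGRK5-MI replicates 1, 2 and 5, with 0 in the other 6 libraries. Vpreb3 had 0 counts in all of NLC-MI and at most 3 in a TgGRK5-MI library.

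Genes for lymphocyte homing and survival were counted beside the markers. The paper had already reported Cxcl13, Cxcl11 and Il15 as altered in TgGRK5-MI cardiomyocytes, also by RT-PCR on day 4 after MI. The list was chosen with earlier results known. Its counts are therefore a description and not independent support. Of 17 such genes 12 passed the filter, and at an unadjusted p under 0.05 in edgeR 1 was higher (Cxcl13) and 1 was lower (Il15, whose unadjusted p rose above 0.05 without any of 5 single libraries), against 1.77% and 2.08% of the genes tested. In the fit without the filter 2 of the 17 were higher (Cxcl13 and Cxcl11) and 1 was lower. The shares among all genes with a count were 1.81% and 2.27%. None of these genes reached an adjusted p under 0.10 in either fit, and the lowest with the filter was 0.858. With each library left out in turn, edgeR log2 fold changes were 1.37 to 1.83 for Cxcl13, 1.53 to 3.21 for Cxcl11 and -0.84 to -0.30 for Il15. In edgeR fits of the 7 deepest libraries, log2 fold changes were 0.96 for Cxcl13, 1.66 for Cxcl11 and -0.76 for Il15. There the unadjusted p were 0.0922, 0.0557 and 0.0749. The unadjusted p of Cxcl13 and Cxcl11 stayed under 0.05 whichever single library was left out. CXCL13 attracts B cells through the receptor CXCR5. Cxcl13 had 42, 55, 6, 24 and 20 counts in NLC-MI and 120, 76, 72, 62 and 17 counts in TgGRK5-MI, whereas Cxcr5 was near the floor, with 0 to 3 counts in NLC-MI and 1 to 7 counts in TgGRK5-MI. Among 12 genes of natural killer cells, which share receptors with T cells, only Ccl5 passed the filter.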

How the data were processed

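Cardiomyocyte RNA was measured on day 4 after MI in 10 libraries, 5 per group. The authors deposited counts per Ensembl gene as whole numbers without normalization. The submitters' processing notes name Bowtie2, RSEM 1.2.31, DESeq2 and mm10, so the counts may be rounded estimates. The strand setting and annotation version are not given in the sources used here. Groups came from the labels. No label gives a litter, batch or sex for a library. Library totals had medians of 20540815 (NLC-MI) and 18337488 (TgGRK5-MI) counts, and floors cover counting error only.

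Of the 51789 identifiers, 51596 were found in GENCODE M21 (GRCm38), the source of symbols, positions and exons, and all 9 members were matched. Sequences were compared with blastn 2.17.0. In R 4.3.3, counts were fitted with edgeR 4.0.16 (TMM, filterByExpr, quasi-likelihood F test, Benjamini-Hochberg adjustment over all genes tested). Results were called at an adjusted p under 0.10, or counted at an unadjusted p under 0.05. Members and genes under the filter were taken from the same fit of all 28506 genes with a count. Single members were also compared with a two-sided exact permutation test of mean log2 CPM (prior count 2). Sums over members were described without a test.

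Named genes were all members and, from lists of other genes, the highest ones and those with an unadjusted p under 0.05. Members and lists were chosen with earlier results of these data known. The alternatives were RLE factors, library size alone, DESeq2 1.42.0 and limma-voom with sample quality weights (limma 3.58.1). Every limma-voom value given here used these weights. Further alternatives were no filter, at least 10 counts in every library, a replicate block, a prior count of 0.5, and each library left out. A fit of the 7 deepest libraries was added after the totals were seen. The fits were tested on simulated data. The result for 1 further gene is not reported here.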

Additional observations from a re-analysis of the deposited data

Results flagged for a closer look

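In 3 of 26 groups of 5 libraries examined, a single library stood apart from the other 4 by Dixon's criterion. Chance meets that criterion in about 1 in 20 groups of independent, normally spread values. Low counts with ties at 0, taken from the same libraries, are not such values, so the 3 groups are not set against that rate. Cd3d was at 0.308 CPM in NLC-MI replicate 1, while the other NLC-MI libraries lay between 0 and 0.0810 CPM. Cd3e was at 0 CPM in NLC-MI replicate 5, below the 0.131 to 0.176 CPM of the other NLC-MI libraries. Trbc2 was at 0.916 CPM in TgGRK5-MI replicate 2, above the 0.0869 to 0.313 CPM of the other TgGRK5-MI libraries. The Cd3d value rests on 7 counts and the Cd3e value on 0 counts.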

How the results depend on the processing

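Over the alternatives, 142 fits of single markers were made, of which 123 kept the direction of the reported value and 19 reversed it, and none reached an adjusted p under 0.10 (lowest 0.470, for Cd4). Cd79a and Cd79b never changed sign, with log2 fold changes of 0.37 to 0.88 and 0.38 to 1.203 when each library was left out in turn, and limma-voom gave 0.25 and 0.52. The other 7 markers did change sign when libraries were left out, with ranges of -0.98 to 0.86 for Cd3d, -0.88 to 0.0609 for Cd3e, -0.23 to 0.70 for Cd3g, -0.39 to 0.0450 for Cd4, -0.27 to 0.46 for Cd8a, -1.31 to 0.15 for Trbc2 and -0.61 to 0.18 for Ms4a1. For Cd4, limma-voom gave a log2 fold change of -0.68 (unadjusted p = 0.0811), outside its range with a library left out. Cd3g was at -0.00164 with the replicate block, and Ms4a1 at 0.0445 in the 7 deepest libraries. The cause of these reversals was not tested. The number of markers with an unadjusted p under 0.05 was 0 in edgeR and ran from 0 to 1 with a library left out (Cd79b without NLC-MI replicate 1). The difference of the summed T levels was -0.758 to 0.165 CPM with a library left out, and that of the summed B levels was 0.310 to 1.02 CPM. The highest of these came without NLC-MI replicate 1. The pooled SD of 0.916 CPM is that of all 10 libraries, so the 1.02 CPM cannot be set against it. Without Cd79b the difference of the summed B levels was 0.266 CPM.

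Over all genes tested, 8 genes were higher and 4 lower at an adjusted p under 0.10. The higher genes numbered 13 with library size alone, 13 without the filter, 4 with at least 10 counts in every library, 5 with the replicate block, 5 in the 7 deepest libraries, 41 with limma-voom, 42 with DESeq2 and 2 to 7 with a library left out. The lower genes numbered 1 in the 7 deepest libraries, 9 with limma-voom, 27 with DESeq2 and 1 to 3 with a library left out. The cause was not tested. Deviations from the group means in same-numbered libraries had correlations over genes of 0.0717, 0.662, 0.381, -0.341 and 0.0848. These averaged 0.172, against -0.0274 for libraries of different numbers, which ran from -0.606 to 0.731. In all, 2 of 10 libraries correlated best with the library of their own number. Whether the numbers pair the mice cannot be told from these values, and no label gives it. The 6 markers under the filter had 95% intervals that spanned from 2.05 to 3.81 log2 units. The parts of depth and of the spread between mice in these widths were not tested.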

Other observations

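Genes tested were ranked by how closely their log2 CPM followed the summed marker levels over the 10 libraries, which share depth and composition. Closest to the summed T level were Camk4 (Spearman rho 0.939), a calcium-dependent kinase known from T cells and neurons, Twist1 (0.927), a transcription factor of mesenchymal cells, and Rarg, Kdelc2 and the MHC class II gene H2-Ab1 (0.915 each). Closest to the summed B level were Wfdc17, Selenom and the ATP-gated channel gene P2rx4 (0.976 each), followed by Fkbp1b and Ccser1 (0.964 each). These are descriptions of 15232 genes ranked over 10 libraries.

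Klre1, a receptor gene of natural killer cells, had 2, 1, 1, 1 and 0 counts in NLC-MI and 16, 30, 6, 0 and 40 counts in TgGRK5-MI. The edgeR fit of all genes with a count gave Klre1 a log2 fold change of 4.04, with a standard error of 0.74 and an adjusted p of 0.0737, and TgGRK5-MI replicate 4 lay with the NLC-MI libraries. With the replicate block the adjusted p from edgeR was 0.351. With a library left out it was 0.103 to 0.340 in 9 of 10 fits and 0.00897 without TgGRK5-MI replicate 4. In the 7 deepest libraries, which also lack that replicate, edgeR gave a log2 fold change of 4.69 and an adjusted p of 0.0110. The other 11 natural killer genes had no unadjusted p under 0.05 in edgeR.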
